A study of Saccharomyces cerevisiae with 18 samples.

Results

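The genes described here encode the RNA polymerase machinery of budding yeast. They were chosen by name: every gene whose symbol is RPA, RPB, RPC or RPO followed by a number, together with RET1, RRN3, RRN5, RRN6, RRN7, RRN9, RRN10 and RRN11. This gave 39 of the 6159 genes counted, and all 39 were in both the monosome and the disome count table. By textbook role, 7 encode subunits found only in RNA polymerase I (Pol I), 7 only in Pol II and 10 only in Pol III. Another 5 encode subunits that all 3 enzymes share and 2 encode subunits shared by Pol I and Pol III. The RRN genes encode initiation factors of Pol I: Rrn3, the 3 proteins of the core factor and 3 of the upstream activation factor. The last gene, RPO41, encodes the mitochondrial RNA polymerase, which the naming pattern also picks up. Footprints of translating ribosomes were counted in 18 libraries from 4 strains of the BY4741 background grown in rich medium (YPD), all labelled MATa with the his3Δ1, leu2Δ0 and ura3Δ0 alleles. Wild type, for which alone the labels also list met15Δ0, gave 3 monosome and 2 disome libraries. The *hel2*∆ strain (hel2Δ::LEU2) gave 2 and 2, the *ncs2*∆*elp6*∆ strain (ncs2Δ::HIS3MX and elp6Δ::URA3) gave 3 and 2, and the triple deletion, which carries all 3 of these deletions, gave 2 and 2. Ncs2 and Elp6 are needed to modify the wobble uridine of certain tRNAs, and Hel2 is the ubiquitin ligase that recognizes collided ribosomes.

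Each nuclear RNA polymerase is built on a pair of large subunits that form the active site, surrounded by a ring of small ones, some of which serve several enzymes. Pol I makes the large ribosomal RNA precursor, Pol II makes mRNA, and Pol III makes tRNA, 5S ribosomal RNA and other short RNAs. In growing yeast most transcription is devoted to ribosomal RNA and tRNA, and the subunits are assembled in the cytoplasm before import into the nucleus.

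Monosome libraries held between 2381991 and 24884873 counted footprints and disome libraries between 845707 and 2521397. The 4 monosome libraries without *HEL2* had at most 4352295 and the 6 with *HEL2* at least 11702547, so depth and *HEL2* genotype cannot be told apart. The 39 genes took between 0.467% and 0.590% of the monosome counts and between 0.317% and 0.511% of the disome counts. HEL2 had at most 6 counts in any library labelled *hel2*∆, triple deletions included, against at least 66 elsewhere. ELP6 had at most 3 and NCS2 at most 26 counts in libraries labelled as lacking them. Among replicate pairs, chi-square per degree of freedom ran from 1.12 for the *ncs2*∆*elp6*∆ disome pair, near counting noise, to 22.2 for wild-type monosome libraries 1 and 3. Levels are given in CPM, each library's count relative to its total, scaled by the trimmed mean of M values (TMM) within each library type. A footprint count reflects both the amount of an mRNA and the ribosomes on it, and no mRNA measurement was used here to separate them.

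In wild type, the median ribosome density was highest for subunits that serve several enzymes. Per kilobase of gene, the 5 subunits common to all 3 enzymes had a median of 453 CPM in monosome libraries and the 2 shared by Pol I and Pol III a median of 374. Subunits of a single enzyme were lower, with medians of 172 for Pol I, 102 for Pol II and 80.6 for Pol III, against 24.4 over the 5716 genes with a known length. The highest density was that of RPC10 (YHR143W-A, chromosome VIII, 387233 to 387445 in the R64 assembly), a shared zinc-binding subunit also called Rpb12, with 750 CPM per kb. Next came RPB10 (YOR210W, chromosome XV, 738320 to 738532) with 734. These are also the shortest of the genes (213 bp each), and open reading frames were counted with a short extension at both ends, which weighs most on short genes. Length ran from the start to the end of a gene, any intron included, which lowers the density of such a gene. RPO26, the gene at the median of 453, spans 544 bp, which is not a whole number of codons. Over the 3 libraries the densities of RPC10 and RPB10 overlapped. Within Pol I the densities ran from 104 for the largest subunit RPA190 to 283 for RPA12, a span of 2.71 times. The ranges of the groups met, since RPC19 of Pol I and Pol III (452) lay above RPB5 (405) and RPB8 (380). Densities ran from 58.2 (RPB2) to 237 (RPB11) in Pol II and from 29.8 (RPC82) to 150 (RPC11) in Pol III.

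The RRN genes stood far below the subunits they work with. The core factor, which binds the ribosomal DNA promoter and is made of Rrn6, Rrn7 and Rrn11, had 3.23 CPM per kb for RRN11, 2.90 for RRN6 and 2.38 for RRN7. These densities lie between the 13.3 and 15.6 percentiles of all genes, whereas every nuclear polymerase subunit was at or above the 54.6 percentile. In the upstream activation factor, which binds further upstream of the same promoter, RRN5 had 5.16 and RRN9 6.30, but RRN10 had 36.1 CPM per kb. RRN3, which binds Pol I and brings it to the promoter, had 28.6, and RPO41 had 20.6. Density ran over 315-fold from RRN7 to RPC10.

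**Figure D1:**
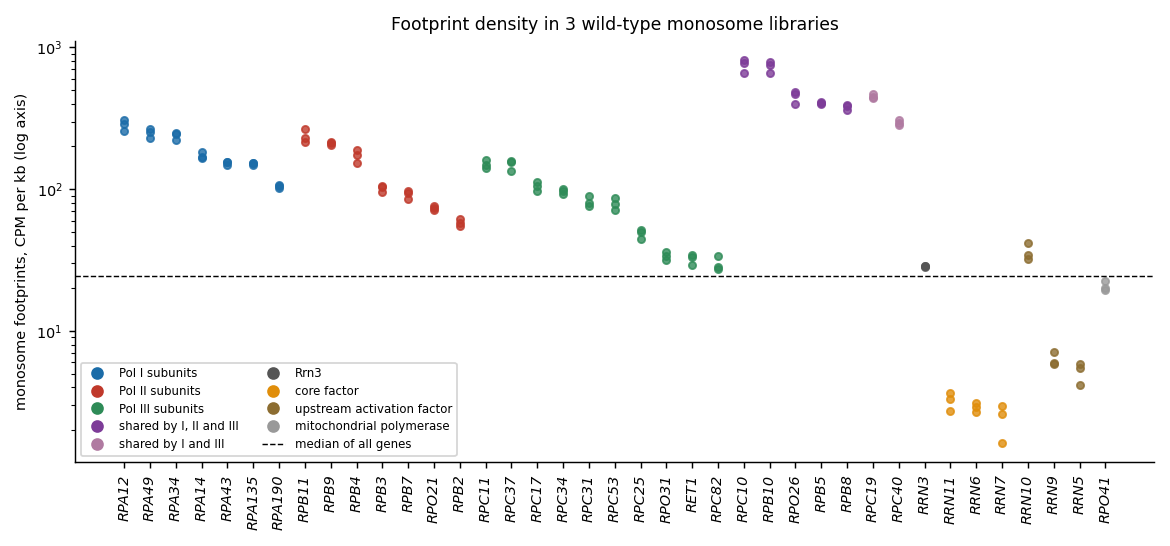
Monosome footprint density (CPM per kilobase of gene, log axis) of the 39 genes in the 3 wild-type libraries, each point a library and each colour a role. The shared subunits lie highest, between 295 and 750 CPM per kb, and the 3 core factor genes lowest, between 2.38 and 3.23, with the median of all genes (24.4) as a dashed line.

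In *ncs2*∆*elp6*∆ against wild type, 8 of the 39 genes were called higher and 13 lower by the quasi-likelihood test of edgeR (adjusted p under 0.05 over 5281 genes). The background over all genes tested was 26.6% higher and 26.4% lower, and the median change was -0.05 for the 39 genes and 0.02 for all genes on the log2 scale. Among the 5 subunits common to the 3 enzymes, 3 were called lower and none higher (median -0.27), and their summed level was 993 ± 57.3 CPM in wild type and 858 ± 46.7 in *ncs2*∆*elp6*∆ (SD, n = 3 each). With library totals alone RPC10 was still called lower, but RPB10 (-0.16) and RPB5 (-0.02) were not. The largest fall of the 39 was in RPC34 (YNR003C, chromosome XIV, 634344 to 635297), a Pol III subunit that contacts the initiation factor TFIIIB. RPC34 had 93.0, 95.5 and 88.0 CPM in wild type and 48.8, 43.5 and 41.7 in *ncs2*∆*elp6*∆. Every mutant library was below every wild-type library, with a log2 change of -1.05 ± 0.08 (SE, adjusted p = 4.44e-08 by edgeR).

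The next largest falls were in 1 subunit of Pol I and 1 of Pol II. RPA12 (YJR063W, chromosome X, 555195 to 555572), the Pol I subunit that cleaves backtracked RNA, had 115, 109 and 97.2 CPM in wild type and 69.3, 62.9 and 69.3 in *ncs2*∆*elp6*∆ (-0.68 ± 0.08, adjusted p = 5.15e-06 by edgeR). RPB3 (YIL021W, chromosome IX, 312905 to 313861) had 92.0, 102 and 99.3 CPM in wild type and 66.5, 58.8 and 61.2 in the mutant (-0.66 ± 0.08, adjusted p = 4.74e-06 by edgeR). Neither gene's groups overlapped. Rpb3 pairs with Rpb11 early in Pol II assembly, and RPB11, with 77.8, 97.2 and 83.3 CPM in wild type and 97.4, 92.7 and 129 in the mutant, was not called (0.29 ± 0.13, adjusted p = 0.0731 by edgeR).

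Among the genes that rose, RPC82, RRN6 and RPB2 kept their calls in every alternative run. RPC82 (YPR190C, chromosome XVI, 917077 to 919041) encodes the partner of Rpc34 and Rpc31 in a Pol III subcomplex that acts in initiation. It had 55.5, 66.3 and 53.9 CPM in wild type and 78.7, 80.4 and 74.5 in *ncs2*∆*elp6*∆ (0.41 ± 0.09, adjusted p = 0.00098 by edgeR). The 3 partners thus differed, since RPC34 was lower and RPC31 had a change of only -0.23 ± 0.09, whose call was lost without wild-type library 1 or 2 (-0.25 and -0.17) or mutant library 2 or 3 (-0.26 and -0.15), and with DESeq2. RRN6 had 7.78, 8.39 and 7.22 CPM in wild type and 11.2, 11.1 and 10.1 in the mutant, with no overlap (0.47 ± 0.13, adjusted p = 0.00608 by edgeR). RRN11 had 5.56, 5.06 and 4.14 against 6.13, 7.25 and 7.10 CPM, and its call (0.46 ± 0.17) was lost without wild-type library 2 or 3 (0.48 and 0.34) or mutant library 2 or 3 (0.41 and 0.43), with DESeq2 and after thinning to equal depth.

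Of the 6 largest subunits of the 3 nuclear enzymes, 2 were called higher and 1 lower. RPA190 (YOR341W, chromosome XV, 960987 to 965981) had 506, 524 and 536 CPM in wild type and 475, 466 and 416 in *ncs2*∆*elp6*∆ (-0.21 ± 0.07), and its call was lost without wild-type library 2 (-0.22) or mutant library 3 (-0.16). RPA135, the other large Pol I subunit, had 550, 552 and 532 against 533, 512 and 503 CPM and was not called (-0.09 ± 0.07). In Pol II, RPO21 (YDL140C, chromosome IV, 205360 to 210561), the largest subunit, had 395, 370 and 382 against 441, 448 and 417 CPM (0.18 ± 0.07). That call was lost without wild-type library 2 (0.15) or mutant library 1 (0.17) or 2 (0.16) and with RLE factors, while RPB2 (YOR151C, chromosome XV, 612997 to 616671), the other large subunit, kept its call throughout. RPB2 had 227, 212 and 203 CPM in wild type and 280, 296 and 251 in the mutant (0.36 ± 0.08, adjusted p = 0.00103 by edgeR). In Pol III, RPO31 had 158, 148 and 138 against 151, 156 and 143 CPM, and RET1 had 115, 118 and 101 against 125, 124 and 103. The groups of both Pol III genes overlapped and neither was called (0.01 ± 0.07 and 0.07 ± 0.09).

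The direction of small changes rested on the scaling. The TMM factors of the wild-type monosome libraries were between 0.845 and 0.899 and those of all other monosome libraries at least 1.00. Scaled to library totals alone, the median of all genes shifted to 0.27 in this comparison, also to 0.27 in *hel2*∆ against wild type, and to 0.14 and 0.13 in the comparisons of the triple deletion with *ncs2*∆*elp6*∆ and with *hel2*∆. In *ncs2*∆*elp6*∆ against wild type, 22 of the 39 genes were then called higher and 4 lower, beside 2620 and 613 of 5281 genes. RPC34, RPA12, RPB3 and RPC10 were lower and RRN6, RPC82 and RPB2 higher under that scaling too, and these 7 calls were lost under none of the 12 alternatives run. Changes below are relative to the TMM scale.

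Deleting NCS2 and ELP6 in cells that already lacked HEL2 was measured on other libraries, the triple deletion against *hel2*∆. The same 3 genes fell most. RPC34 had 79.9 and 71.3 CPM in *hel2*∆ and 41.6 and 41.5 in the triple deletion (-0.85 ± 0.12, adjusted p = 9.24e-08 by edgeR). RPB3 had 107 and 109 against 66.4 and 60.3 CPM (-0.78 ± 0.11, adjusted p = 3.57e-08 by edgeR). RPA12 had 73.5 and 73.8 against 47.8 and 58.7 CPM (-0.44 ± 0.12), a call that was lost without *hel2*∆ library 2 (-0.44, adjusted p = 0.0511 by edgeR) and with DESeq2. In all 3 genes both triple-deletion libraries were below both *hel2*∆ libraries.

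RPC82 again rose, from 61.9 and 50.9 CPM to 98.5 and 90.6 (0.76 ± 0.12, adjusted p = 3.4e-07 by edgeR). RPA34, which forms a heterodimer with Rpa49 on Pol I, rose from 146 and 131 to 194 and 191 CPM (0.49 ± 0.09, adjusted p = 5.02e-06 by edgeR), also without overlap. RRN6 had 6.75 and 7.35 against 13.9 and 10.8 CPM (0.76 ± 0.27), but on 18 and 27 counts in *hel2*∆, and the call was lost without either *hel2*∆ library (0.70 and 0.83) or triple-deletion library 1 (0.60) and with DESeq2. Of the 39 genes 10 were called higher and 8 lower, beside 22.5% and 21.7% of the 5027 genes tested. Scaled to library totals alone, 13 were higher and 5 lower, beside 1549 and 738 of the 5027 genes. The count of 18 fell to 10 without *hel2*∆ library 1, to 7 without library 2 and to 9 with DESeq2. Of all genes, DESeq2 called 637 higher and 618 lower of 5321.

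The 2 comparisons have no library in common, so their calls can be set side by side. RPA34, RPB2, RPC40, RPC82 and RRN6 were called higher in both, and RPA12, RPA190, RPB10, RPB3, RPB7 and RPC34 lower in both. None of the 39 genes was called in opposite directions, beside only 51 of the 5025 genes tested in both. The shared calls are 5 of the 8 and 5 of the 10 higher calls and 6 of the 13 and 6 of the 8 lower calls. Over the 5025 genes tested in both, 15.8% were called higher in both and 16.1% lower in both, against 12.8% and 15.4% of the 39 genes, so the share called in both was near that of genes at large. In the triple deletion against *hel2*∆, RPB2 (0.23 and 0.22), RPA190 (-0.23 and -0.25) and RPB7 (-0.35 and -0.38) lost their calls without either *hel2*∆ library. RPB7 also lost it without triple-deletion library 1 (-0.26), and RPB10 without *hel2*∆ library 2 (-0.36). In *ncs2*∆*elp6*∆ against wild type, RPA34 lost its call without wild-type library 1 (0.18), RPB7 without library 2 (-0.27) and RPC40 without mutant library 1 (0.20).

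**Figure D2:**
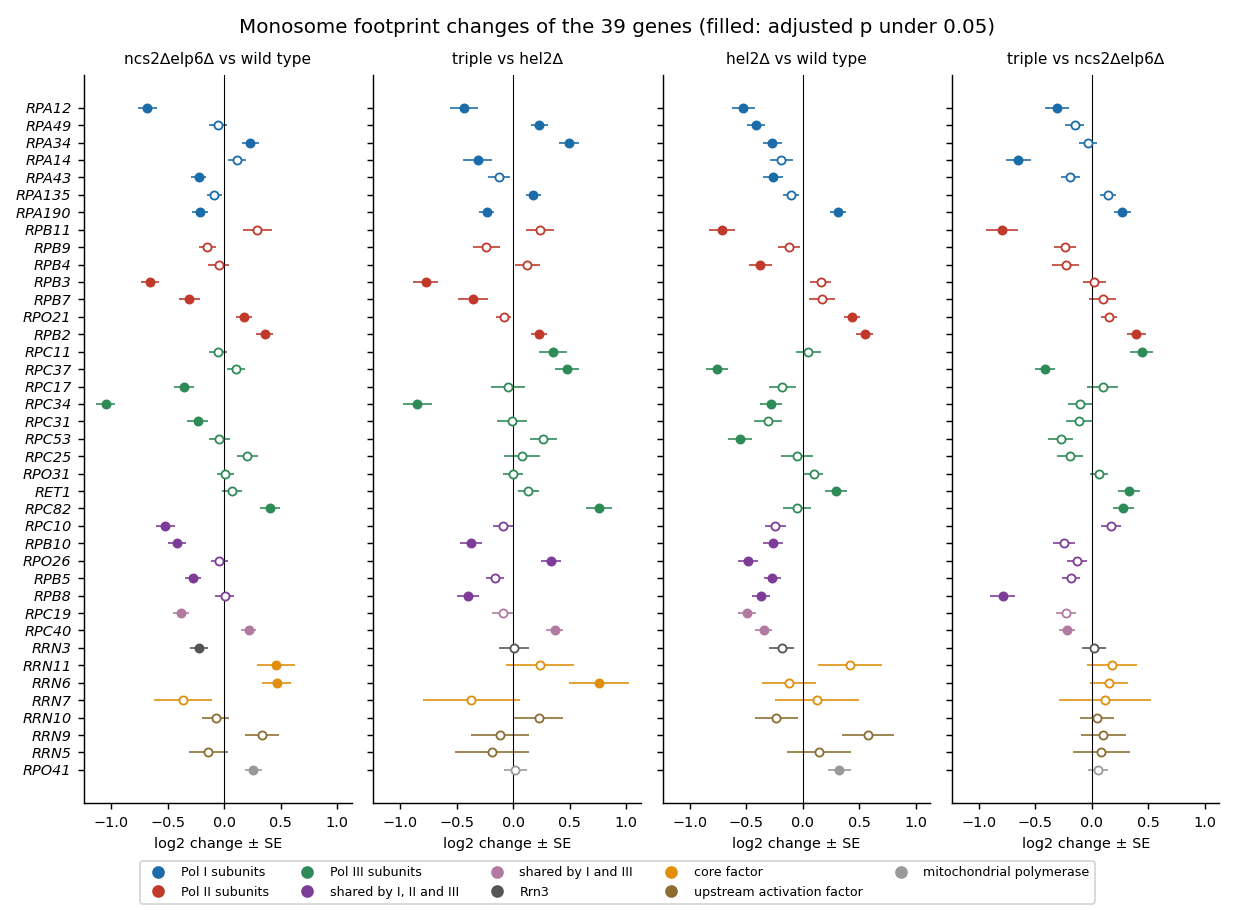
Log2 change ± SE of monosome footprints for the 39 genes in 4 comparisons, coloured by role, with filled points for genes called at an adjusted p under 0.05. RPC34 and RPB3 lie left of 0 in both comparisons that remove NCS2 and ELP6 (-1.05 and -0.66, then -0.85 and -0.78), and the large subunits RPB2 and RPO21 right of 0 in *hel2*∆ against wild type (0.55 and 0.44).

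In *hel2*∆ against wild type, the called falls were all in genes of at most 1269 bp and the called rises all in genes of at least 3450 bp. Of the 39, 5 genes were called higher and 15 lower, beside 14.7% and 17.2% of the 5225 genes tested. The median change was -0.19 for the 39 genes and 0.03 for all genes. With library totals alone 10 of the 39 were called higher and 6 lower, beside 1937 and 337 of the 5225 genes. The number called was sensitive to the *hel2*∆ libraries: 9 genes were called without library 1 and 9 without library 2, each fit assuming that the remaining library varies as the others do.

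The falls included both partners of 3 heterodimers, while other partners were split or not called. Of RPB4 and RPB7, which form the Pol II stalk, RPB4 was called lower (-0.375) and RPB7 was not called (0.172). The Pol I stalk was split as well, since RPA14 was not called (-0.191) and its partner RPA43 was called lower (-0.263). In the Pol III stalk neither RPC25 (-0.048) nor its partner RPC17 (-0.179) was called. RPC37 (YKR025W, chromosome XI, 487770 to 488618) and RPC53 (YDL150W, chromosome IV, 183343 to 184611) encode the Pol III heterodimer that acts in termination. RPC37 had 133, 135 and 115 CPM in wild type and 73.9 and 74.9 in *hel2*∆ (-0.76 ± 0.10, adjusted p = 2.43e-05 by edgeR). RPC53 had 111, 101 and 90.3 against 66.8 and 68.3 CPM (-0.56 ± 0.11, adjusted p = 0.000701 by edgeR). The groups of both genes were fully apart. RPC40 and RPC19, which pair in Pol I and Pol III as Rpb3 and Rpb11 do in Pol II, had changes of -0.35 ± 0.08 and -0.49 ± 0.08. RPB11 (YOL005C, chromosome XV, 315813 to 316175) fell from 77.8, 97.2 and 83.3 CPM to 53.3 and 50.9 (-0.71 ± 0.12, adjusted p = 0.000211 by edgeR), while RPB3 was not called (0.16 ± 0.09). The third pair, RPA34 and RPA49 of Pol I, had changes of -0.27 ± 0.09 and -0.41 ± 0.08. RPA34 lost its call without wild-type library 2 (-0.24) or *hel2*∆ library 1 (-0.34) or 2 (-0.19), and RPA49 without *hel2*∆ library 2 (-0.34), and with library totals alone both calls were lost (-0.02 and -0.16), as was that of RPC40 (-0.10). Of the other genes called in this paragraph, only RPC40, RPB4 and RPA43 lost their calls without *hel2*∆ library 1 (-0.33, -0.36 and -0.36) or 2 (-0.36, -0.39 and -0.17). RPB4 and RPA43 also lost their calls with library totals alone (-0.13 and -0.02).

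All 5 subunits common to the 3 enzymes had values below wild type, and 4 of them were called lower, beside 17.2% of all genes. Under library totals alone, RPO26 was still called, but RPB8 (-0.13), RPB5 (-0.02) and RPB10 (-0.02) were not. The largest of these changes was in RPO26, the shared subunit also called Rpb6, with 265, 257 and 218 CPM in wild type and 180 and 170 in *hel2*∆ (-0.48 ± 0.09, adjusted p = 0.00062 by edgeR). That call was just lost without *hel2*∆ library 2 (-0.45, adjusted p = 0.0504 by edgeR), and those of RPB8 and RPB5 without either *hel2*∆ library (RPB8 -0.36 and -0.39, RPB5 -0.31 and -0.23). RPB10 lost its call in all 4 fits without wild-type library 1 or 2 or a *hel2*∆ library (-0.29 to -0.21). Summed, the 5 genes held 993 ± 57.3 CPM in wild type (SD, n = 3) and 782 ± 13.2 in *hel2*∆ (SD, n = 2).

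The 5 genes called higher were RPO41 and 4 that encode large subunits, RPB2, RPO21, RPA190 and RET1. RPB2 rose from 227, 212 and 203 to 311 and 309 CPM (0.55 ± 0.07, adjusted p = 3.91e-05 by edgeR). RPO21 rose from 395, 370 and 382 to 520 and 509 CPM (0.44 ± 0.07, adjusted p = 0.000209 by edgeR). Both were apart from wild type in every library and kept their calls in all alternatives. RPO41 had 78.6, 91.0 and 81.6 CPM against 115 and 94.2 (0.33 ± 0.10), and lost its call without wild-type library 1 (0.28) or *hel2*∆ library 1 (0.18) and with DESeq2. RPA190 had 506, 524 and 536 against 648 and 639 CPM (0.32 ± 0.07), and lost it without either *hel2*∆ library (0.31 and 0.32). RET1, the second largest Pol III subunit, had 115, 118 and 101 against 149 and 123 CPM (0.30 ± 0.10) and lost it without *hel2*∆ library 1 (0.16) and with DESeq2. The remaining large subunits, RPA135 with 507 and 500 CPM in *hel2*∆ and RPO31 with 160 and 154, were not called (-0.10 ± 0.07 and 0.10 ± 0.08).

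Removing HEL2 from *ncs2*∆*elp6*∆ cells gave 5 higher and 6 lower calls, beside 12.0% and 12.2% of 5318 genes. Scaled to library totals alone, there were 8 and 4, beside 1232 and 345 of the 5318 genes. RPB11 fell from 97.4, 92.7 and 129 CPM to 62.0 and 60.1 in the triple deletion (-0.80 ± 0.14, adjusted p = 0.000763 by edgeR), a call just lost without triple-deletion library 2 (-0.77, adjusted p = 0.0509 by edgeR). RPB8 (YOR224C, chromosome XV, 760825 to 761265), a subunit of all 3 enzymes, fell from 193, 154 and 160 to 105 and 91.0 CPM (-0.79 ± 0.11, adjusted p = 0.000125 by edgeR). RPA14 (YDR156W, chromosome IV, 769525 to 769938), a stalk subunit of Pol I, fell from 81.8, 76.1 and 75.1 to 42.3 and 54.4 CPM (-0.65 ± 0.11, adjusted p = 0.000626 by edgeR). None of these groups overlapped.

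The largest rise was in RPC11, the RNA-cleaving subunit of Pol III, from 48.3, 48.0 and 48.8 CPM to 72.6 and 60.1 (0.44 ± 0.10), a call that was lost without triple-deletion library 1 (0.31). RPB2 rose from 280, 296 and 251 to 355 and 367 CPM (0.39 ± 0.08, adjusted p = 0.0026 by edgeR) and kept its call in every alternative. RET1 had 125, 124 and 103 against 148 and 146 CPM (0.33 ± 0.10) and RPA190 475, 466 and 416 against 538 and 548 (0.27 ± 0.08), and both lost their calls without either triple-deletion library (RET1 0.32 and 0.34, RPA190 0.28 and 0.26). RPO21 had 462 and 500 CPM in the triple deletion, RPA135 557 and 574 and RPO31 154 and 157, and these 3 were not called against *ncs2*∆*elp6*∆ (0.15 ± 0.07, 0.14 ± 0.07 and 0.06 ± 0.08). The count of 11 fell to 5 without triple-deletion library 1 and to 7 without library 2.

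The 2 removals of HEL2, which share no library, gave the same call for RET1, RPA190 and RPB2 (higher) and for RPA12, RPB11, RPB8, RPC37 and RPC40 (lower). None of the 39 genes was called in opposite directions, beside only 24 of the 5199 genes tested in both. The shared calls are 3 of 5 and 3 of 5 higher calls and 5 of 15 and 5 of 6 lower calls. Among the 5199 genes tested in both, 5.58% were called higher in both and 7.31% lower in both, against 7.69% and 12.8% of the 39. In the triple deletion, RPC40 lost its call without *ncs2*∆*elp6*∆ library 1 or 2 or either triple-deletion library (-0.273 to -0.18). RPA12 lost it without *ncs2*∆*elp6*∆ library 1 or 3 or triple-deletion library 1 (-0.288 to -0.195), and with DESeq2 (-0.316). Both calls were also lost after thinning to equal depth and with library totals alone.

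**Figure D3:**
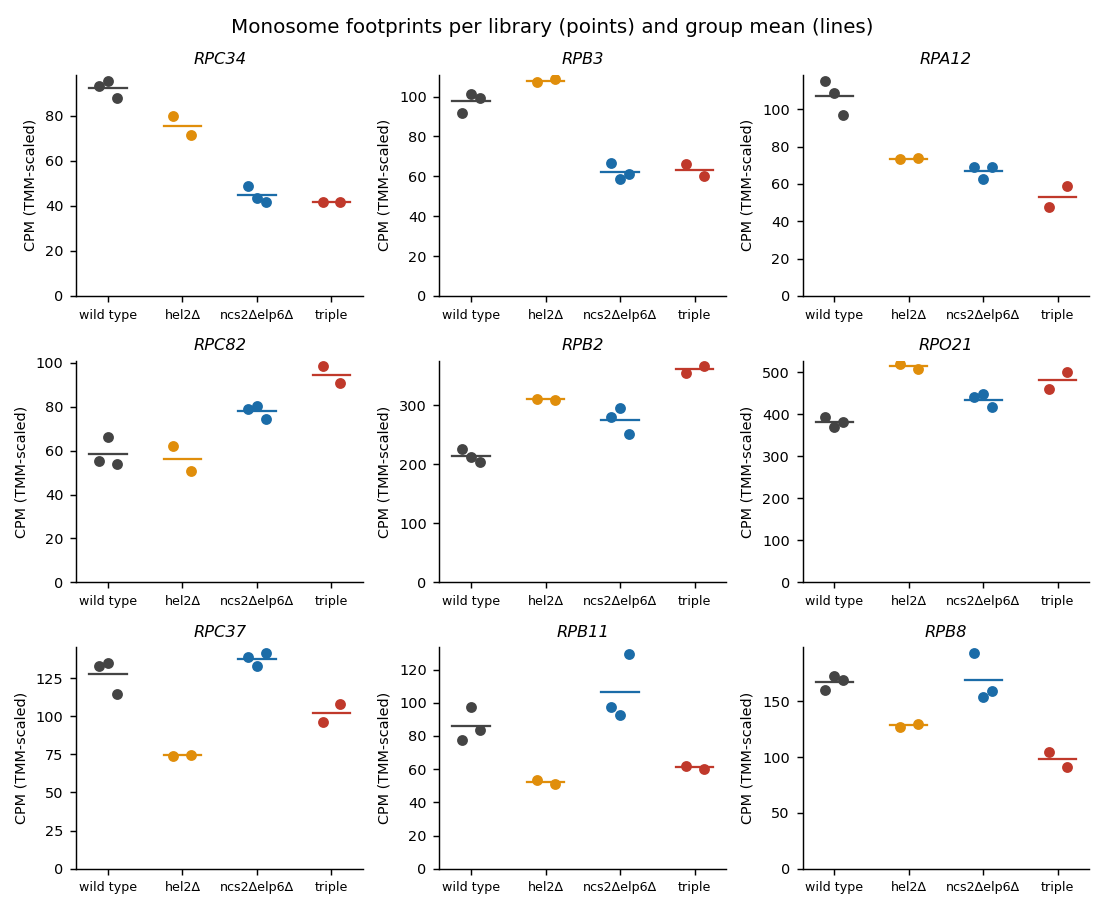
Monosome footprints (TMM-scaled CPM, axes from 0) of 9 genes in each library (points) with the mean of each strain (lines). RPC34 and RPB3 are low in both strains without NCS2 and ELP6, and RPC37 and RPB11 in both strains without HEL2. RPC37 was higher in the triple deletion than in *hel2*∆ (log2 change 0.47), a call kept in every alternative. RPB8 is lowest in the triple deletion (105 and 91.0 CPM).

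Gene length moved with these changes, within the 39 genes and among genes at large. In *hel2*∆ against wild type the 5 genes called higher were between 3450 and 5202 bp long and the 15 called lower between 213 and 1269 bp. Across the 39 genes the Spearman correlation of length with the log2 change was 0.52, and across 5202 genes it was 0.28 (these are correlations across genes, which share libraries and are not replicates). Of all genes of 3000 bp or more, 45.4% were called higher and 5.73% lower in this comparison. Of genes under 1000 bp, 6.64% were called higher and 24.0% lower, against none and 54.5% of the 22 such genes here. In the triple deletion against *ncs2*∆*elp6*∆ the correlations were 0.52 and 0.33. In *ncs2*∆*elp6*∆ against wild type they were 0.40 and 0.08, and in the triple deletion against *hel2*∆ 0.24 and 0.05. What part length had in the changes of single genes was not tested. RPA43 and RPA190, whose coding regions lie 804 bp apart on chromosome XV, had changes of -0.26 ± 0.09 and 0.32 ± 0.07 in *hel2*∆ against wild type. The call of RPA43 was lost without wild-type library 1 (-0.255) or *hel2*∆ library 1 (-0.356) or 2 (-0.167). It was also lost with library totals alone (-0.018).

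**Figure D4:**
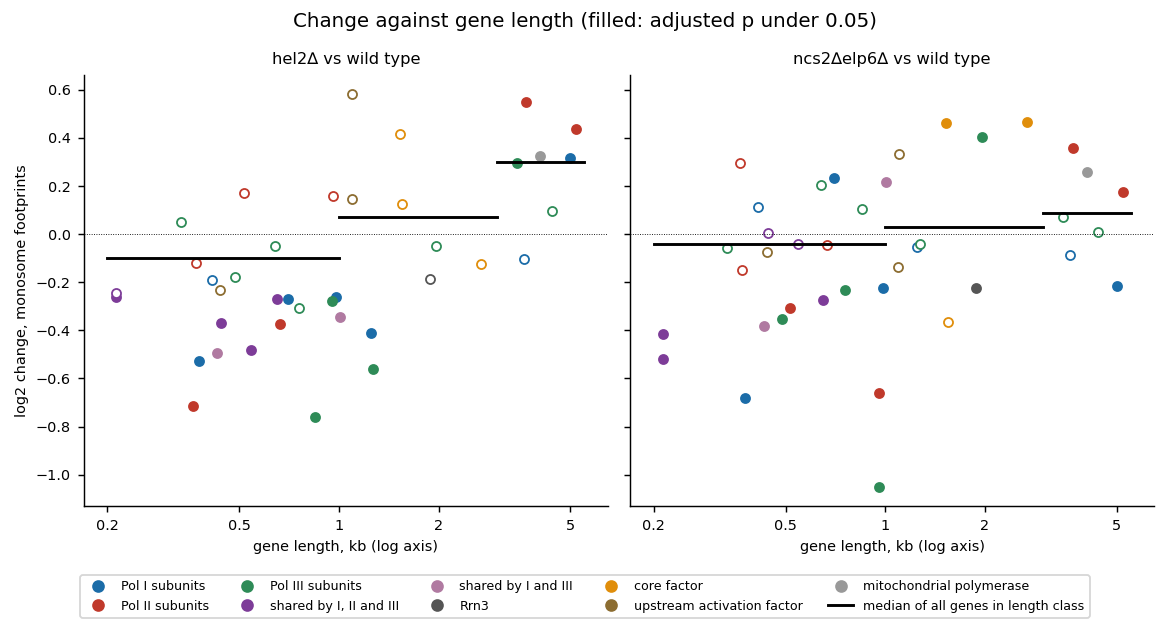
Log2 change in monosome footprints against gene length (kb, log axis) for the 39 genes in *hel2*∆ (left) and *ncs2*∆*elp6*∆ (right), each against wild type, with black bars for the median of all genes shorter than 1 kb, from 1 to 3 kb, and longer. In *hel2*∆ the bars stand at -0.10, 0.07 and 0.30 and the genes called higher are all in the longest class.

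The change on losing HEL2 was also compared between the backgrounds with and without the tRNA modifications, in a fit of all 4 strains. None of the 39 genes was called by edgeR, beside 2.99% higher and 2.30% lower of 5354 genes. DESeq2 also called none, beside 203 higher and 131 lower of 3607 genes. At an unadjusted p under 0.05 there were 11 of the 39, 8 of them positive, beside 1164 of the 5354 genes. The values nearest the threshold were those of RPC10 (0.42 ± 0.13), RPA14 (-0.46 ± 0.15) and RPB8 (-0.41 ± 0.14). Without wild-type library 3, 4 genes were called, and 1 without triple-deletion library 2.

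Among the other Pol I initiation factors, RRN5, RRN7 and RRN9 had few footprints. RRN5 had 6.39, 5.96 and 4.54 CPM in wild type, 6.001 and 6.26 in *hel2*∆, 4.63, 5.48 and 5.36 in *ncs2*∆*elp6*∆ and 6.56 and 4.68 in the triple deletion. RRN7 had 3.98, 4.55 and 2.51, then 3.75 and 4.08, then 2.66, 2.26 and 3.77, and then 4.74 and 2.04 CPM in the same order of strains. RRN9 had 6.39, 6.57 and 7.79, then 11.6 and 9.26, then 9.49, 9.35 and 7.39, and then 10.9 and 8.55 CPM. Of these 3, none was called in any monosome comparison, and in the *hel2*∆ and triple-deletion libraries they rested on between 10 and 42 counts. RRN10 had 14.2, 15.1 and 18.3 CPM in wild type, 13.5 and 13.3 in *hel2*∆, 14.7, 16.3 and 14.6 in *ncs2*∆*elp6*∆ and 13.9 and 16.7 in the triple deletion, and was not called either. RRN3 had 54.5, 54.0 and 53.4 CPM in wild type, 42.8 and 50.6 in *hel2*∆, 46.3, 48.9 and 44.3 in *ncs2*∆*elp6*∆ and 43.4 and 49.7 in the triple deletion. Its fall in *ncs2*∆*elp6*∆ against wild type (-0.22 ± 0.08) was called, but not without wild-type library 1 or 2 (-0.22 and -0.23) or mutant library 1 or 3 (-0.22 and -0.19). RRN11 had 7.13 and 5.99 CPM in *hel2*∆ and 9.12 and 6.72 in the triple deletion.

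A disome footprint is the stretch of mRNA covered by a pair of ribosomes in contact, which arises when a ribosome catches up with a slower one, and disome footprints were set against monosome footprints gene by gene. In wild type, Pol II and Pol III each held subunits at both ends of the scale. Relative to all genes, 8 of the 39 genes had more disome than monosome footprints and 17 fewer, beside 24.6% and 26.2% of 5252 genes. The median log2 ratio in the fit was -0.49 for the 39 genes and -0.05 for all genes. With library totals alone the median of all genes was -0.26. Then 4 of the 39 were called higher and 19 lower, beside 951 and 1781 of the 5252 genes. RPO21, the largest Pol II subunit, had 596 and 570 CPM in disome libraries against 395, 370 and 382 in monosome libraries (0.82 ± 0.10, adjusted p = 6.81e-05 by edgeR). RPC25, a stalk subunit of Pol III, had 52.6 and 49.0 against 28.4, 33.0 and 32.1 (0.92 ± 0.16, adjusted p = 0.000804 by edgeR), and RPB3 had 148 and 139 against 92.0, 102 and 99.3 (0.77 ± 0.12, adjusted p = 0.000335 by edgeR). These 3 genes kept their calls in all alternatives.

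Of the 22 genes here under 1000 bp, 59.1% had fewer disome footprints, beside 32.4% of all genes of that length. RPC31 had 14.9 and 20.3 CPM in disome libraries and 60.6, 67.8 and 57.4 in monosome libraries (-1.60 ± 0.20, adjusted p = 8.64e-05 by edgeR). RPB4, a Pol II stalk subunit, had 33.1 and 32.9 against 125, 116 and 102 (-1.58 ± 0.16, adjusted p = 2.48e-05 by edgeR). RPO26 and RPB11 had log2 ratios of -1.57 ± 0.15 and -1.53 ± 0.21. The disome and monosome values did not overlap in any of these genes. Among the initiation factors, RRN11 had 3 and 0 disome counts and RRN5 had 14 and 15. Their calls (-2.05 ± 0.78 and 1.01 ± 0.34) were each lost without wild-type monosome library 2 (-2.03 and 1.05) or 3 (-2.16 and 0.88) or disome library 2 (-1.11 and 0.91), that of RRN11 also without monosome library 1 (-1.94) and that of RRN5 without disome library 1 (1.12). The call of RRN11 was also lost with DESeq2 or RLE factors and that of RRN5 with library totals alone (0.81).

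Disome enrichment is the change of disome footprints between strains beyond that of monosome footprints, and was fitted as a library type by strain interaction. In *ncs2*∆*elp6*∆ against wild type, 6 of the 39 genes gained enrichment and 4 lost it, beside 10.0% and 8.68% of 5389 genes. With library totals alone 6 gained and 2 lost it, beside 598 and 417 of the 5389 genes. The largest gain was in RPB9 (YGL070C, chromosome VII, 374459 to 374827), a small Pol II subunit that acts in start site choice and fidelity. RPB9 had 104 and 80.5 CPM in wild-type and 161 and 169 in *ncs2*∆*elp6*∆ disome libraries, while monosome levels were 79.2, 78.0 and 75.3 and then 71.5, 66.0 and 74.0. The log2 disome to monosome ratio of same-numbered libraries was 0.39 and 0.04 in wild type and 1.17 and 1.35 in the mutant (enrichment 1.01 ± 0.17, adjusted p = 0.000523 by edgeR).

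RPB10 had ratios of -0.54 and -1.09 in wild type and 0.15 and 0.17 in *ncs2*∆*elp6*∆ (0.96 ± 0.21, adjusted p = 0.00367 by edgeR). Here the monosome level fell (-0.42 ± 0.08) and the disome level taken alone had a change of 0.49 ± 0.22 that was not called (adjusted p = 0.132 by edgeR). RPC53 had ratios of -1.88 and -1.05 in wild type and -0.36 and -0.62 in the mutant (0.82 ± 0.26), but kept its call only without wild-type monosome library 3, mutant monosome library 3 or wild-type disome library 2. In the other 7 of the 10 fits that left out 1 library it ran from 0.46 to 1.01. The other gains were in RPO26 (0.81 ± 0.18, lost without mutant disome library 2 at 0.72), RPA34 (0.77 ± 0.17, kept throughout) and RPA12 (0.70 ± 0.23). For RPA12 the disome level alone did not change (-0.02 ± 0.25) while its monosome level fell, and the call was kept only without wild-type monosome library 3 or mutant disome library 2 (0.42 to 0.74 in the other 8 fits), and lost with RLE factors.

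The losses were in RRN5, RET1, RPB2 and RPO21. RET1 (YOR207C, chromosome XV, 730008 to 733457) had 150 and 103 CPM in wild-type and 80.6 and 59.6 in *ncs2*∆*elp6*∆ disome libraries, and ratios of 0.38 and -0.20 and then -0.63 and -1.05 (-0.92 ± 0.23, adjusted p = 0.00972 by edgeR). RPO21 had ratios of 0.59 and 0.62 and then 0.15 and 0.02 (-0.46 ± 0.12, adjusted p = 0.0118 by edgeR). Without mutant disome library 2 both calls were lost, at -0.71 and -0.41 (adjusted p = 0.138 and 0.0888 by edgeR). RPB2 had ratios of 0.12 and 0.03 and then -0.28 and -0.65 (-0.48 ± 0.16), with disome levels of 246 and 216 against 231 and 189 CPM and a rise in monosomes. Its call was lost without wild-type monosome library 2, mutant monosome library 1 or 2, wild-type disome library 1 or mutant disome library 2 (-0.53 to -0.35), and with library totals alone (-0.45).

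RRN5 (YLR141W, chromosome XII, 423683 to 424774) had 14 and 15 disome counts in wild type, 9 and 19 in *hel2*∆, 1 and 4 in *ncs2*∆*elp6*∆ and 15 and 13 in the triple deletion. The ratios were 0.49 and 0.78 in wild type and -1.82 and -0.70 in *ncs2*∆*elp6*∆ (-1.90 ± 0.65, adjusted p = 0.0497 by edgeR). This rests on 5 disome footprints in the mutant, and the call was kept only without wild-type monosome library 1, with values between -3.00 and -1.41 in the other 9 fits. The count of 10 calls among the 39 genes fell to 4 without *ncs2*∆*elp6*∆ disome library 2, and to 6 without wild-type monosome library 2 or *ncs2*∆*elp6*∆ monosome library 1 or 2.

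RPC34 and RPB3, whose monosome footprints fell most in this comparison together with RPA12, had lower disome footprints as well. RPB3 had 148 and 139 CPM in wild-type and 68.6 and 61.2 in *ncs2*∆*elp6*∆ disome libraries (-1.17 ± 0.18 in disomes alone, adjusted p = 0.00131 by edgeR), and RPC34 changed by -0.73 ± 0.22. Their enrichment was not called (-0.47 ± 0.17 and 0.36 ± 0.20). Length also moved with enrichment among the 39 genes, with gains in genes of 213 to 1269 bp and losses in genes of 1092 to 5202 bp. The correlation with length was -0.38 for the 39 genes and 0.00 over 5356 genes.

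In the triple deletion against *hel2*∆ the same modifications were lost in cells without Hel2. There 3 genes gained enrichment and none lost it, beside 4.57% and 4.51% of 5030 genes. Scaled to library totals alone, 4 gained and none lost it, beside 327 and 156 of the 5030 genes. DESeq2 called no loss either, beside 150 losses among 2915 genes. At an unadjusted p under 0.05 there were 8 of the 39, 3 of them losses, beside 1196 of the 5030 genes. RPB8 had ratios of -0.77 and -0.49 in *hel2*∆ and 0.34 and 0.35 in the triple deletion (0.94 ± 0.20, adjusted p = 0.0039 by edgeR) and kept its call throughout. RPB9 had ratios of -0.30 and 0.28 and then 1.08 and 0.81 (0.86 ± 0.22), and RPO26 had -1.20 and -1.88 and then -0.58 and -0.98 (0.80 ± 0.22). Taken alone, their disome levels rose by 0.63 ± 0.19 and 1.08 ± 0.21. The call of RPB9 was lost without any 1 of the 4 monosome libraries or triple-deletion disome library 1 (0.77 to 0.93), and that of RPO26 was kept only without triple-deletion monosome library 2 or *hel2*∆ disome library 1 (0.35 to 0.85 in the other 6 fits) and lost with DESeq2 (0.74). The count of 3 fell to 1 without either *hel2*∆ monosome library or triple-deletion monosome library 1. RPB9 and RPO26 were called higher both here and in *ncs2*∆*elp6*∆ against wild type, which shares no library with this comparison, 2 of the 6 and 2 of the 3 gains and 5.13% of the 39 genes, beside 2.51% of all genes.

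In *hel2*∆ against wild type none of the 38 genes tested was called by edgeR, beside 2.40% higher and 2.80% lower of 4999 genes. DESeq2 called 1. At an unadjusted p under 0.05 there were 9 of the 38, 8 of them positive, beside 1016 of the 4999 genes. RPC53 led these 9, with ratios of -1.88 and -1.05 in wild type and -0.45 and -0.54 in *hel2*∆. RRN7 was not tested for low counts. Without wild-type disome library 2, 3 genes were called, and 1 without wild-type monosome library 3.

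Removing HEL2 from *ncs2*∆*elp6*∆ cells raised the enrichment of 5 genes and lowered that of 3, beside 8.95% and 8.17% of 5017 genes. Scaled to library totals alone, these were 2 and 4, beside 328 and 571 of the 5017 genes. RPC11 (YDR045C, chromosome IV, 547978 to 548310) had ratios of 0.38 and 0.12 in *ncs2*∆*elp6*∆ and -1.15 and -0.56 in the triple deletion (-1.09 ± 0.24, adjusted p = 0.000998 by edgeR). RPB10 fell from 0.15 and 0.17 to -0.44 and -0.51 (-0.72 ± 0.18, adjusted p = 0.00436 by edgeR), with disome levels of 142 and 133 and then 70.6 and 71.1 CPM. Both kept their calls throughout. RPB7, which forms the Pol II stalk with Rpb4, had ratios of 0.15 and -0.01 and then -0.92 and -0.83 (-1.05 ± 0.28), a call that was lost without triple-deletion monosome library 2 (-0.88, adjusted p = 0.0546 by edgeR), triple-deletion disome library 1 (-0.90) or *ncs2*∆*elp6*∆ disome library 1 (adjusted p = 0.0508 by edgeR).

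Among the gains, RPB8 had ratios of -0.68 and -0.42 in *ncs2*∆*elp6*∆ and 0.34 and 0.35 in the triple deletion (0.85 ± 0.19, adjusted p = 0.00111 by edgeR), and RPA14 -0.45 and -0.41 and then 0.69 and 0.18 (0.79 ± 0.22, adjusted p = 0.00977 by edgeR). In both genes the disome level alone was not called (0.09 ± 0.14 and 0.16 ± 0.18), and the monosome level fell. RPA14 lost its call without *ncs2*∆*elp6*∆ disome library 2 (0.76) or triple-deletion disome library 1 (0.71). RPB2 and RPO21 differed from these in that their disome levels rose: RPB2 from 231 and 189 to 369 and 372 CPM and RPO21 from 489 and 455 to 640 and 721. Enrichment changed by 0.42 ± 0.14 and 0.36 ± 0.12, and each call was lost without *ncs2*∆*elp6*∆ disome library 2 (0.28 and 0.32), triple-deletion monosome library 1 (0.43 and 0.34) or triple-deletion disome library 2 (0.42 and 0.28). RPB2 also lost it without *ncs2*∆*elp6*∆ monosome library 2 (0.37) or triple-deletion disome library 1 (0.43), and RPO21 without *ncs2*∆*elp6*∆ disome library 1 (0.41). With library totals alone both calls were lost (0.32 and 0.26). RRN5 had ratios of 0.80 and 0.96 in the triple deletion (2.07 ± 0.72) and kept its call only without *ncs2*∆*elp6*∆ monosome library 1 or 3 or triple-deletion monosome library 1 (1.58 to 3.17 in the other 6 fits). Its call was also lost with library totals alone (1.97). The count of 8 fell to 5 without either *ncs2*∆*elp6*∆ disome library.

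**Figure D5:**
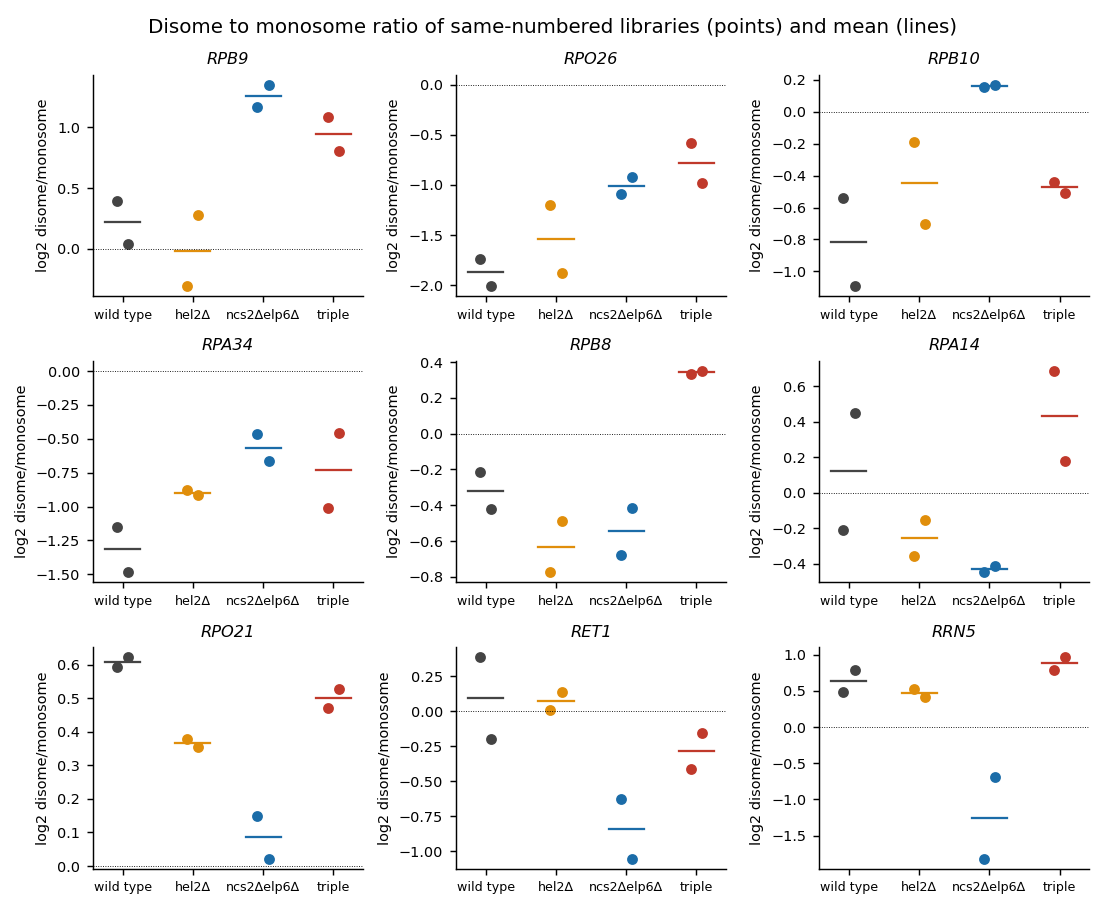
Log2 ratio of disome to monosome footprints (TMM-scaled CPM, same-numbered libraries) in each strain for 9 genes, points for library pairs and lines for means. RPB9 is high in both strains without NCS2 and ELP6 (1.17 and 1.35, then 1.08 and 0.81), RPB10 is high in *ncs2*∆*elp6*∆ alone of the 4 strains (0.15 and 0.17), and RPO21, RET1 and RRN5 are lowest there.

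These 2 enrichment comparisons share the *ncs2*∆*elp6*∆ libraries. Genes that gained enrichment in *ncs2*∆*elp6*∆ and lost it on removal of HEL2 numbered 1 of the 39, RPB10, beside 2.69% of 5016 genes. Genes with the opposite pattern numbered 3, RPB2, RPO21 and RRN5, beside 3.25%. The difference between the effects of deleting HEL2 in both backgrounds was called for RPA14 (1.19 ± 0.32) and RPB8 (1.12 ± 0.27), both positive, beside 1.54% higher and 1.86% lower of 5114 genes. DESeq2 called 7 of the 39, 4 positive and 3 negative, beside 142 positive and 187 negative of 4258 genes. Both calls were lost when certain libraries were left out, RPB8 without *hel2*∆ monosome library 2 (1.10), triple-deletion monosome library 2 (1.01), *ncs2*∆*elp6*∆ disome library 2 (1.09) or triple-deletion disome library 1 (1.01), and RPA14 in 10 of 18 such fits (0.90 to 1.21). RPA14 kept its call without wild-type monosome library 1 or 3, *ncs2*∆*elp6*∆ monosome library 2 or 3, triple-deletion monosome library 2, wild-type disome library 1, *hel2*∆ disome library 2 or triple-deletion disome library 2.

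Genes that work with the polymerases were read from 4 lists of 45 genes in all: 5 other Pol I factors, 22 general factors of Pol II, 10 Pol III factors and 8 proteins of polymerase assembly and import. In *ncs2*∆*elp6*∆ against wild type 10 of the 45 were higher and 7 lower, 22.2% and 15.6% beside 26.6% and 26.4% of all genes (median 0.06). SUA7, which encodes TFIIB, rose most (0.97 ± 0.08), followed by BUD27, needed for polymerase assembly (0.56 ± 0.08), and TOA1 of TFIIA (-0.59 ± 0.09) and UAF30 (-0.53 ± 0.15) fell most. In the triple deletion against *hel2*∆ 15 were higher and 1, BRF1 of TFIIIB (-0.56 ± 0.15), lower, 33.3% and 2.22% beside 22.5% and 21.7% of all genes, again led by SUA7 (1.29 ± 0.10), with BUD27 next. In *hel2*∆ against wild type 4 were higher and 15 lower, 8.89% and 33.3% beside 14.7% and 17.2% of all genes, among them 9 of the Pol II factors, with the largest changes in BUD27 (-0.76 ± 0.12) and SPT4 (-0.61 ± 0.13) down and TFB2 (0.62 ± 0.15) and MAF1, the repressor of Pol III (0.51 ± 0.16), up. In the triple deletion against *ncs2*∆*elp6*∆ 3 were higher and 4 lower, 6.67% and 8.89% beside 12.0% and 12.2%. Both comparisons that include *hel2*∆ use the same *hel2*∆ monosome libraries, so their opposite shifts are not independent. Calls of the 45 genes were not examined in the alternative runs.

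In disome enrichment, SPT15, the TATA-binding protein that all 3 polymerases use, had the largest called gain of the 45 in *ncs2*∆*elp6*∆ against wild type (1.47 ± 0.20) and in the triple deletion against *hel2*∆ (1.03 ± 0.20). HMO1, an HMG-box protein of ribosomal DNA, lost enrichment in both (-0.91 ± 0.20 and -0.78 ± 0.16). The counts were 6 higher and 4 lower in the former (13.3% and 8.89%, beside 10.0% and 8.68% of all genes) and 3 and 2 in the latter (6.67% and 4.44%, beside 4.57% and 4.51%). In *hel2*∆ against wild type they were 3 and 0 (6.67%, beside 2.40% higher of all genes), among them the elongation factors SPT5 (0.73 ± 0.17) and SPT6 (0.65 ± 0.17), and in the triple deletion against *ncs2*∆*elp6*∆ 1 and 1 (2.22% each, beside 8.95% and 8.17%), TOA1 (1.11 ± 0.35) and TFB1 of TFIIH (-0.67 ± 0.22). In wild type 5 of the 45 had more and 18 fewer disome than monosome footprints, 11.1% and 40.0% beside 24.6% and 26.2% of all genes.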

How the data were processed

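Raw footprint counts for each reading frame were deposited by the authors as 2 tables, monosome and disome. Adapters (FastX toolkit) and randomized linker bases were removed, reads from noncoding RNA were discarded with STAR, and the rest were mapped with Bowtie to reading frames extended at both ends, keeping unique sense hits with at most 1 mismatch. Submitters' notes give FastQC 0.11.7, STAR 2.5.3a, Bowtie 1.2.3 and the sacCer3 build. Disome reads were limited to disome length. No duplicate removal was stated.

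Testing used edgeR 4.0.16 in R 4.3.3 (quasi-likelihood F test), TMM factors, filterByExpr, robust dispersions and Benjamini-Hochberg adjustment over all genes tested, with 0.05 as threshold and fits holding only the strains compared. SE is the log2 change over the square root of F. Ratios use a prior count of 2. Enrichment fits held genes in both tables, and P-values measure spread between libraries, which the study calls biological replicates. Between strains, replicate numbers did not pair samples. Same-numbered monosome and disome libraries of a strain were not checked for pairing. The paper collected both fractions from the gradients, so these libraries may share a lysate. The enrichment and wild-type ratio fits treated them as independent. Alternatives were DESeq2 1.42.0, RLE factors, no filter, a replicate block, monosome libraries thinned to equal depth, disome libraries alone, TMM within library type, library totals, and leaving out each library. Library totals and the test of the difference in enrichment were added after seeing the data. Gene names are those of the tables, and all 39 identifiers were matched to the RefSeq table of R64, used for coordinates and length (5716 of the monosome and 5556 of the disome identifiers matched). The tests were checked on simulated counts.

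The genes and lists were chosen with earlier results of these data known. Monosome values in every library are given for the largest subunits and the RRN genes. Per comparison, the called genes that changed most each way, up to 3, are named, most with library values or ratios. Of the other lists up to 2 each way are named, with their change only.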

Additional observations from a re-analysis of the deposited data

Results flagged for a closer look

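The effect of deleting HEL2 on disome enrichment differed between backgrounds in 2 of the 39 genes, RPA14 and RPB8, by a test of the difference itself in edgeR. For RPA14 the log2 difference was 1.19 ± 0.32 (adjusted p = 0.0321), and for RPB8 it was 1.12 ± 0.27 (adjusted p = 0.0153). The disome to monosome ratios of RPB8 were -0.21 and -0.42 in wild type and -0.77 and -0.49 in *hel2*∆. They were -0.68 and -0.42 in *ncs2*∆*elp6*∆ and 0.34 and 0.35 in the triple deletion. For RPA14 the ratios were -0.21 and 0.45 in wild type, which lay far apart, and -0.36 and -0.15 in *hel2*∆. They were -0.45 and -0.41 in *ncs2*∆*elp6*∆ and 0.69 and 0.18 in the triple deletion. Monosome footprints of both genes were lower in the triple deletion, and the monosome differences between backgrounds were -0.41 ± 0.14 and -0.46 ± 0.15, neither of which was called. Without some libraries these calls were lost, RPB8 in 4 and RPA14 in 10 of 18 fits.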

How the results depend on the processing

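Of 118 calls among the 39 genes, 49 held in every alternative run, 64 were lost in some and 5 changed sign in some. With library totals alone, RRN3 (0.033), RPC31 (0.026), RPA43 (0.031) and RPA190 (0.041) turned from lower to above 0 in *ncs2*∆*elp6*∆ against wild type, and with disome libraries alone RPA12 turned to -0.024 in enrichment, where its monosome fall no longer counted. The number of genes called moved by more than 1.5 times in these settings: 7 with the replicate block in the triple deletion against *ncs2*∆*elp6*∆, 9 with DESeq2 in the triple deletion against *hel2*∆, 1 with thinned libraries and 3 with library totals in the monosome difference between backgrounds, 1 with DESeq2 in enrichment of *hel2*∆ against wild type, 11 with disome libraries alone in enrichment of the triple deletion against *hel2*∆, and 7 (4 positive and 3 negative) with DESeq2 in the enrichment difference between backgrounds. The causes were not tested. The replicate numbers did not pair the samples between strains (correlations between -0.18 and 0.06). Pairing of monosome with disome libraries within a strain was not checked. With the replicate block 21, 23 and 14 genes were called in *ncs2*∆*elp6*∆ and *hel2*∆ against wild type and the triple deletion against *hel2*∆. It gave 21 in the wild-type ratio, 9, 0, 9 and 3 in the enrichment comparisons and 0 and 3 in the monosome and enrichment differences. Leaving out 1 library gave 16 to 21 calls in *ncs2*∆*elp6*∆ against wild type, 9 to 23 in *hel2*∆ against wild type, 5 to 11 in the triple deletion against *ncs2*∆*elp6*∆, 7 to 18 against *hel2*∆, 0 to 4 in the monosome difference and 19 to 26 in the wild-type ratio. For enrichment it gave 4 to 10 in *ncs2*∆*elp6*∆, 0 to 3 in *hel2*∆, 5 to 10 and 1 to 4 in the triple deletion against *ncs2*∆*elp6*∆ and *hel2*∆, and 0 to 5 in the difference. A lone remaining library is assumed to vary like the other groups. Disome counts of the core factor genes, at most 11 in any library, limit what can be read from them.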
